A study of Mus musculus with 2 samples.

Results

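The proteasome genes were examined in OT-I CD8+ T cells with and without overexpression of the T-box transcription factor Eomes. Members were the gene symbols that begin with *Psma* to *Psmg* followed by a digit and that reached an FPKM (fragments mapped to a gene, scaled by transcript length and library depth) of at least 1 in either library. Of 50 such symbols 47 were members, among 9925 genes expressed at that level and 14732 symbols listed in all. They held 5 immunoproteasome genes (*Psmb8*, *Psmb9*, *Psmb10*, *Psme1* and *Psme2*), 41 constitutive genes and *Psmc3ip*, which shares the name but encodes a meiotic recombination factor and no proteasome subunit.

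OT-I cells carry a transgenic T cell receptor for the ovalbumin peptide SIINFEKL. CD8+ T cells of the lymph nodes and spleen of OT-I transgenic C57BL/6 mice aged 6-8 wk were activated for 24 hr with 2.5 ng/mL of the peptide in IL-2 (10 U/mL), and were then transduced with the retroviral vector RVKM, either empty (control) or encoding Eomes, in both cases with an IRES-hCD2 cassette that marks transduced cells. Sorted hCD2+ cells, taken 48 hr after transduction, were plated at 40000 cells per well and stimulated again with the same peptide and IL-2 for 3 days. Both groups therefore shared the receptor, the vector, the sort and both stimulations, and differed by the Eomes insert, which the vector expressed far above the cells' own level. Each group was 1 library of cultured cells (the control and the Eomes library), with the number of mice behind it not given in the sources used here, so no difference below has a replicate check and no test between the conditions was possible.

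The proteasome degrades proteins that have been tagged with ubiquitin. Its 20S core is a barrel of outer alpha rings and inner beta rings, with the proteolytic sites on the beta subunits encoded by *Psmb5*, *Psmb6* and *Psmb7*, and a 19S cap of ATPase and non-ATPase subunits binds, unfolds and feeds in the substrate. Under interferon-gamma, and constantly in many lymphoid cells, the subunits encoded by *Psmb8*, *Psmb9* and *Psmb10* take the places of those of *Psmb5*, *Psmb6* and *Psmb7* to form the immunoproteasome, and the PA28 alpha-beta ring of *Psme1* and *Psme2* can replace the cap. This form is known for making peptides that the TAP transporter carries to MHC class I molecules, and activated T cells depend on the proteasome for growth.

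Promoter sequences are shown for 3 genes of the catalytic exchange and for the stretch that *Psmb9* shares with *Tap1*, since these are the genes whose levels are compared in pairs below. All are RefSeq windows on GRCm38.p6, written 5' to 3' on the named strand, and those of single genes are the 250 bases before the RefSeq start. The capitals mark TTCCCAGAA, a match to the gamma-activated sequence motif TTCNNNGAA, in *Psmb8* (chr17:34197945-34198194, plus strand). In *Psmb5* (chr14:54617996-54618245, minus strand) and *Psmb6* (chr11:70525107-70525356, plus strand) they mark matches to TGACNNNGC, the motif of the Nrf1 and Nrf2 factors. In the 225 bases between the divergent starts of *Psmb9* and *Tap1* (chr17:34187331-34187555, plus strand, the strand of *Tap1*) they mark a CCAAT box. In the GENCODE annotation *Psmb8* begins at 34197721, so its printed window lies before the RefSeq start but within the gene as GENCODE draws it.
Psmb8: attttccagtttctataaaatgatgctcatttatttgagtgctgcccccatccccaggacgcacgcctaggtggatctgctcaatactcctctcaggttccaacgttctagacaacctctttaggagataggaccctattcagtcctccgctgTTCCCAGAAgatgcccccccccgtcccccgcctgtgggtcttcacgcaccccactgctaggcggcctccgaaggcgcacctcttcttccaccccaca
Psmb5: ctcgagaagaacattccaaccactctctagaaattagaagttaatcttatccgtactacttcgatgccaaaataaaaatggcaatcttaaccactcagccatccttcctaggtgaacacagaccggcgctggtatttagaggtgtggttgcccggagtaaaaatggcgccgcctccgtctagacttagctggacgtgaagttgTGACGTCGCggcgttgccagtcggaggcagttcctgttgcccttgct
Psmb6: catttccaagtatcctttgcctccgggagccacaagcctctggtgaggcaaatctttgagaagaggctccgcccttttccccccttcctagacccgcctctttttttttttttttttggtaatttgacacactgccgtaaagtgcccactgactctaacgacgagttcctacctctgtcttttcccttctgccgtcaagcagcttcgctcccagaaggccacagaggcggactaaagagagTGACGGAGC
Psmb9 and Tap1: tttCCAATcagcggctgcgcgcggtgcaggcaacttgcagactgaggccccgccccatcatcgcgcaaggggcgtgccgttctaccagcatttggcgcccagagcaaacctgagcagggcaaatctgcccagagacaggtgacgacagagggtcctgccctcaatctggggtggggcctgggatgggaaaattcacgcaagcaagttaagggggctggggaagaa
Promoters were found for 40 of the 47 members, and *Psmb1*, *Psmb2*, *Psmb7*, *Psmc3*, *Psmd3*, *Psmd7* and *Psmg2* had none in the table. Searched on both strands, TTCNNNGAA lay in 2 of the 40 (*Psmb8* and *Psmg1*), against 8.13% of 27025 promoters of the same length. The interferon response motif, GAAA repeated after any pair of bases, lay in *Psmb3*, *Psmd4* and *Psmd9*, against 3.46% of all promoters, and in 0 of the 5 immunoproteasome promoters. TGACNNNGC lay in 5 members, *Psmb5*, *Psmb6*, *Psmc6*, *Psmd12* and *Psmd9*, which is 12.5% of them beside 11.5% of all promoters. The T-box motif AGGTGTGA, bound by the family of factors that holds Eomes, lay in *Psmd13* alone among the members, beside 1.3% of all promoters. The CCAAT box, searched on both strands, lay in 14 of the 40 members (35%) and in 37.5% of all promoters. These matches describe letters in short windows, and no binding was measured here.

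*Eomes* itself (chr 9, 118478212 to 118486132) was at 2.47 FPKM in the control library and 129.6 in the Eomes library, 52.5-fold higher, as the labels say. Depth, read from low FPKM values that were whole reads, came to about 19600000 reads in each library. The T cell markers *Cd3e* (145.2 and 122.9 FPKM), *Cd8a* (181.8 and 99.1) and *Cd8b1* (197.3 and 142.5) were present in both libraries and lower in the Eomes library, and their part in the differences below was not tested. Of 10 markers of CD4+ T cells, B cells, myeloid cells and erythroid cells, 5 were in neither library and the highest of the others was at 0.19 FPKM. The log2 ratios of Eomes-overexpressing over control cells also moved with the GC content of the transcript across all genes, with a median of 0.11 among 4732 expressed genes under 50% GC and of -0.08 among 5103 genes at or above it. Log2 ratios of the results that follow are therefore also given after centring on the median of genes of like transcript GC content, called centred below.

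The proteasome genes were among the more abundant transcripts of these cells and had near-equal levels in both libraries. Summed over the 47 members, FPKM was 7183 in the control library and 6939 in the Eomes library, or 1.28% and 1.26% of all FPKM in the library. The plot of transcript levels by role shows the pairs of values. *Psmb8*, the immunoproteasome form of the chymotrypsin-like subunit, was the highest of all members at 380.9 FPKM in the control library and 371.5 in the Eomes library. *Psmb3* (374.9 and 348.2 FPKM) and *Psmb4* (358.9 and 334.1 FPKM), structural subunits of the beta ring, came next, and 9 of the 10 highest members were shared by both libraries. The membership threshold lay far from most of them. The lowest member was *Psme4*, at 9.24 and 12.1 FPKM, followed by *Psmd10* at 15.9 and 16.2. Below the threshold lay *Psme2b*, a copy of *Psme2*, at 0.5 and 0.49 FPKM, the thymus-specific *Psmb11* at 0.09 and 0.11, and the testis-specific *Psma8* at 0.18 in the control library and not listed in the Eomes library.

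**Figure D1:**
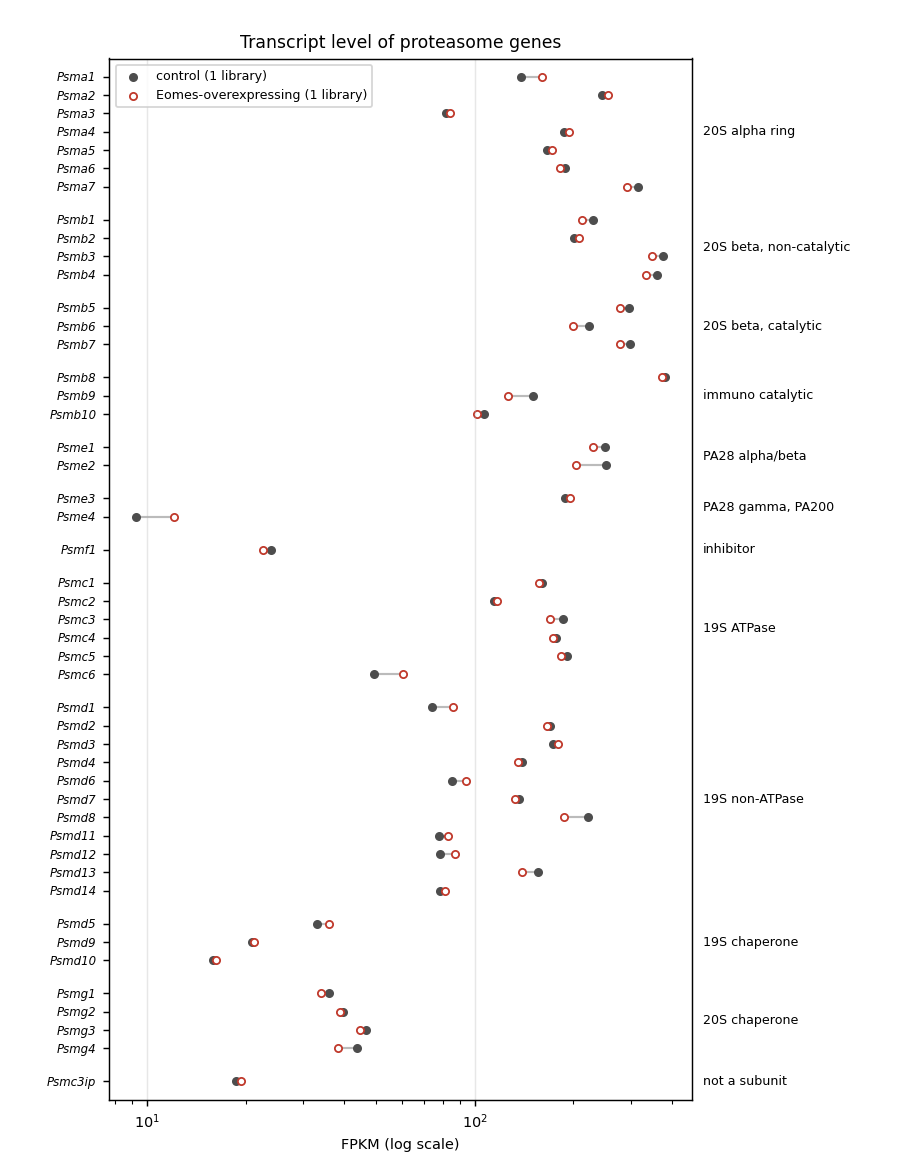
Transcript level of each proteasome gene in FPKM (log axis), with filled points for the control library and open points for the Eomes-overexpressing library, grouped by role; each point is 1 library, with no error. Levels run from 9.24 FPKM for *Psme4* to 380.9 FPKM for *Psmb8*, and the points of each gene lie close together.

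None of the 47 members was past 1.5-fold in either direction, beside 7.65% of the 9925 expressed genes and 1.87% of the 1820 genes at a mean of 50 FPKM or more, where 37 of the members lay. The members had a median log2 ratio of -0.04, with 20 higher and 27 lower in the Eomes library and a range of -0.30 to 0.39, and all expressed genes had a median of -0.0037. The interquartile range of the members was -0.10 to 0.05. For genes at 50 FPKM or more it was -0.12 to 0.08, and for all expressed genes it was -0.16 to 0.16. At 1.2-fold, 3 members were past the threshold (*Psme4* and *Psmc6* higher, *Psme2* lower), beside 30.1% of all expressed genes and 14% of those at 50 FPKM or more. Counting intervals at 95%, from approximate reads, lay within 1.5-fold for 47 of the 47 members. For 21 members the interval held 0, for 15 it lay below 0 and for 11 above it. They hold counting error alone and so set 1 library against the other. A level per library also cannot tell fewer expressing cells from less RNA per cell.

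**Figure D2:**
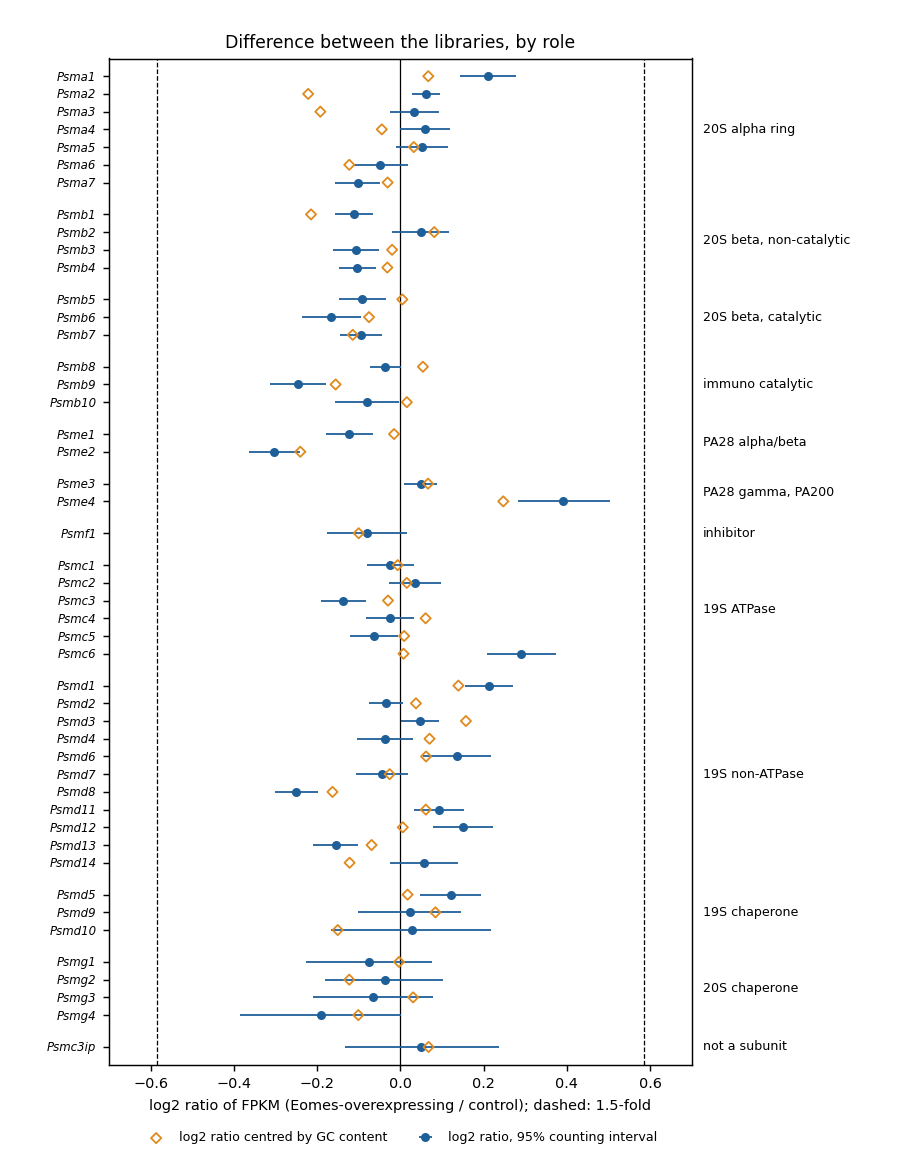
Log2 ratio of FPKM, Eomes-overexpressing over control, for each proteasome gene by role, with 95% counting intervals as bars, open diamonds for the ratio centred by transcript GC content, and dashed lines at 1.5-fold. No gene reaches a dashed line, and *Psmc6* moves from 0.29 to 0.0075 and *Psmb8* from -0.04 to 0.05 when centred.

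The 5 immunoproteasome genes were each lower in the Eomes library, as were 3494 of the 5103 expressed genes at or above 50% GC, where all 5 lay. Their median log2 ratio was -0.12, against -0.03 for the 41 constitutive genes, of which 19 were higher and 22 lower. After centring by GC content the medians were -0.02 and -0.0033, with 2 of the 5 immunoproteasome genes higher and 3 lower. With the GC content of the coding sequence in place of the transcript, a setting added after seeing the data, they were -0.10 and -0.03, so the contrast depended on which GC content was used. *Psmb8* (chr 17, 34197721 to 34201454) gave a log2 ratio of -0.04 (95% counting interval -0.07 to 0.0005) from the levels above, and 0.05 when centred. *Psmb9* (chr 17, 34181987 to 34187764), the immunoproteasome form of the caspase-like subunit, was at 150.2 FPKM in the control library and 126.6 in the Eomes library, a log2 ratio of -0.25 (-0.31 to -0.18) that was -0.16 when centred. It was the lowest of the 3 immunoproteasome catalytic genes on both scales. *Psmb10* (chr 8, 105935735 to 105938444), the immunoproteasome form of the trypsin-like subunit, was at 107.1 and 101.3 FPKM, a log2 ratio of -0.08 (-0.16 to -0.0027) and 0.02 when centred. The 3 catalytic forms thus ran from *Psmb8*, whose interval held 0, to *Psmb9*, well below it.

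Before centring, the constitutive counterparts were also lower in the Eomes library, so the balance of each pair hardly differed. After GC centring, *Psmb10* as a share of its pair with *Psmb7* was 28.3% in the Eomes library, beside 26.5% in the control library. *Psmb5* (chr 14, 54614119 to 54618022) was at 294.9 FPKM in the control library and 276.8 in the Eomes library, with a log2 ratio of -0.09 and 0.0046 when centred. Its level is less certain than the others, since 57.1% of its 50-base stretches also occur in other genes, among them the processed pseudogene *Gm3375*, whereas *Psmb8*, *Psmb9* and *Psmb10* share none. *Psmb6* (chr 11, 70525367 to 70527858) was at 223.6 and 199.3 FPKM, with a log2 ratio of -0.17 (-0.24 to -0.10) and -0.08 when centred. *Psmb7* (chr 2, 38588036 to 38644087) was at 297.0 and 278.0 FPKM, with a log2 ratio of -0.10 and -0.11 when centred. The 3 constitutive catalytic genes thus lay within the range of their 3 immunoproteasome forms.

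As a share of the FPKM of its pair, *Psmb8* with *Psmb5* was 56.4% in the control library (95% counting interval 55.6 to 57.2) and 57.3% in the Eomes library (56.5 to 58.1). By these values the immunoproteasome form was the larger part in both libraries. The part of the shared stretches of *Psmb5* in this share was not tested, and the interval does not hold it. *Psmb9* with *Psmb6* was 40.2% (39.1 to 41.3) and 38.8% (37.7 to 40.0). *Psmb10* with *Psmb7* was 26.5% (25.6 to 27.4) and 26.7% (25.8 to 27.6), the lowest share of the 3. After GC centring it was 28.3% in the Eomes library, above the uncentred interval, while *Psmb8* was at 57.2% and *Psmb9* at 38.8%. The order of the pairs was the same in both libraries. Without centring, the log2 ratio of immunoproteasome to constitutive form differed between libraries by 0.06 for *Psmb8* (-0.01 to 0.12) and by -0.08 for *Psmb9* (-0.18 to 0.02). For *Psmb10* it differed by 0.01 (-0.08 to 0.11), and each of these intervals held 0. No such interval was computed on the centred scales. There *Psmb10* was at 0.02 and *Psmb7* at -0.11, and by coding GC content at 0.0062 and -0.16, so this contrast depended on centring. Summed over the 3 pairs, the immunoproteasome forms made 43.9% (43.4 to 44.4) of catalytic transcript in the control library and 44.3% (43.7 to 44.8) in the Eomes library. After GC centring the summed share in the Eomes library was 44.9%, above the uncentred interval. Transcript shares are not shares of assembled particles.

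**Figure D3:**
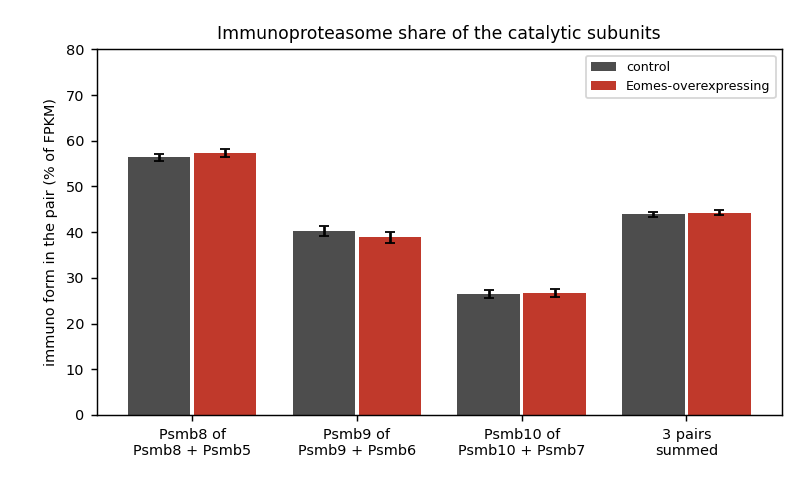
Share of each catalytic pair's FPKM held by the immunoproteasome form, in percent, for the control and Eomes-overexpressing libraries, with 95% counting intervals as bars. Shares are drawn without GC centring. The *Psmb8* share is above 56% and the *Psmb10* share under 28% in both libraries, and the intervals of the libraries overlap within each pair.

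The PA28 genes differed among themselves, with *Psme1* and *Psme2* lower in the Eomes library and *Psme3* slightly higher. *Psme2* (chr 14, 55587441 to 55591113), encoding PA28 beta, was at 251.3 FPKM in the control library and 203.7 in the Eomes library, the lowest log2 ratio of all members at -0.30 (-0.36 to -0.24), and -0.24 when centred. *Psme1* (chr 14, 55578123 to 55581529), encoding its partner PA28 alpha, was at 249.8 and 229.5 FPKM, a log2 ratio of -0.12 (-0.18 to -0.07) that was -0.02 when centred. *Psme3* (chr 11, 101316213 to 101323537), encoding the nuclear PA28 gamma that forms a ring of its own, was at 188.5 and 195.0 FPKM, a log2 ratio of 0.05 (0.0087 to 0.09) that was 0.07 when centred but -0.13 when centred by coding GC content, so its direction turned. These genes share the role of opening the core without ATP. Without centring, *Psme1* and *Psme2* together were 2.66 times *Psme3* in the control library and 2.22 times in the Eomes library. This is a log2 difference of -0.26 (-0.32 to -0.20). As a share of the 3 genes they made 72.7% and 69.0%, and 70.0% in the Eomes library when centred. By coding GC content the log2 ratios were -0.10 for *Psme1*, -0.28 for *Psme2* and -0.13 for *Psme3*, so this contrast depended on the GC content used. *Psme1* made 49.9% of the sum of *Psme1* and *Psme2* in the control library and 53.0% in the Eomes library, a log2 difference of 0.18 (0.10 to 0.26). *Psme2* shares 59.3% of its 50-base stretches with other genes, *Psme2b* among them, so its reads may be split. *Psme2b* stood at or under 0.5 FPKM in both libraries, a level that depends on the same split. The part of shared stretches in the *Psme2* ratio was not tested. *Psme4* (chr 11, 30771726 to 30880361), encoding the large activator PA200, gave the highest log2 ratio of all members, 0.39 (0.28 to 0.50), and 0.25 when centred, at the lowest level.

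Among constitutive subunits the 19S cap held the wider range before centring, with an SD of 0.14 for its 17 genes and 0.10 for the 14 of the 20S core. Once centred the SDs were 0.08 and 0.10. The 11 non-ATPase genes had a median log2 ratio of 0.05, 6 being higher and 5 lower. *Psmd8* (chr 7, 29174188 to 29180701), a lid subunit, was at 222.2 FPKM in the control library and 186.9 in the Eomes library, a log2 ratio of -0.25 (-0.30 to -0.20) and -0.16 when centred, next to *Psme2* at the lower end. *Psmd1* (chr 1, 86064387 to 86139151), the large scaffold of the cap's base, was at 73.9 and 85.7 FPKM, a log2 ratio of 0.21 (0.16 to 0.27) and 0.14 when centred. By coding GC content the *Psmd1* ratio was 0.04. *Psmd14*, the deubiquitinase of the lid, was at 78.1 and 81.2 FPKM, a log2 ratio of 0.06 that was -0.12 when centred. The 6 ATPases had a median of -0.03, 2 being higher and 4 lower. *Psmc6* (chr 14, 45329788 to 45349705) was at 49.4 and 60.5 FPKM, a log2 ratio of 0.29 (0.21 to 0.37). It is the member of lowest GC content (37.0%), and its centred ratio was 0.0075. Once centred, the 6 ATPases lay between -0.03 and 0.06.

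The 7 alpha ring genes, which form the gate of the core, had a median log2 ratio of 0.05 (5 higher, 2 lower) that was -0.04 when centred (2 higher, 5 lower), so the direction of this list turned with base composition. *Psma1* was at 138.9 FPKM in the control library and 160.8 in the Eomes library, a log2 ratio of 0.21 (0.14 to 0.28) and 0.07 when centred. *Psma3*, the lowest alpha gene, was at 82.0 and 83.9 FPKM. The 4 non-catalytic beta genes had a median of -0.11 (-0.03 centred), 3 being lower and 1 higher, and *Psmb2*, the lowest of them, was at 200.5 and 207.5 FPKM. The *Psmd* and *Psmg* chaperones, which help build the particle, stood lower than the subunits of the core and the cap. The 19S chaperones *Psmd5*, *Psmd9* and *Psmd10* ranged from 15.9 to 35.9 FPKM over both libraries and had a median log2 ratio of 0.03. The 20S chaperones *Psmg1* to *Psmg4* were all lower in the Eomes library, with a median of -0.07, as were 5010 of all 9925 expressed genes. The counting interval of each held 0, and once centred 1 was higher and 3 lower, with a median of -0.05. *Psmg1* was the least abundant of them at 35.9 and 34.1 FPKM. *Psmf1*, encoding the inhibitor PI31, was at 23.9 and 22.6 FPKM, and *Psmc3ip* at 18.8 and 19.4 FPKM.

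The members' log2 ratios moved with transcript GC content. Across the 47 members, which come from the same pair of libraries and are not replicates, Pearson's r was -0.65 and Spearman's rho -0.66, and across all expressed genes they were -0.30 and -0.44. Of the 24 members under 50% GC, 17 were higher in the Eomes library and 7 lower, beside 3242 higher and 1475 lower of the 4732 expressed genes on that side. Of the 23 at or above it, 3 were higher and 20 lower, beside 1596 higher and 3494 lower of 5103. The immunoproteasome genes all lay on this side, between 52.8% and 56.5% GC. Centring narrowed the SD of the members' log2 ratios from 0.14 to 0.10, and left 23 higher and 24 lower. *Psme2*, *Psmd8* and *Psmb9* stayed below -0.15 and *Psme4* above 0.2, while *Psma2* came to -0.22 and *Psmb1* to -0.21. By coding GC content *Psma2* was at -0.007 and *Psmb1* at -0.12, beside 0.06 and -0.11 before centring. On that scale *Psme4* was at 0.16, while *Psme2*, *Psmd8* and *Psmb9* stayed below -0.15. The part of GC content in these differences was not tested.

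**Figure D4:**
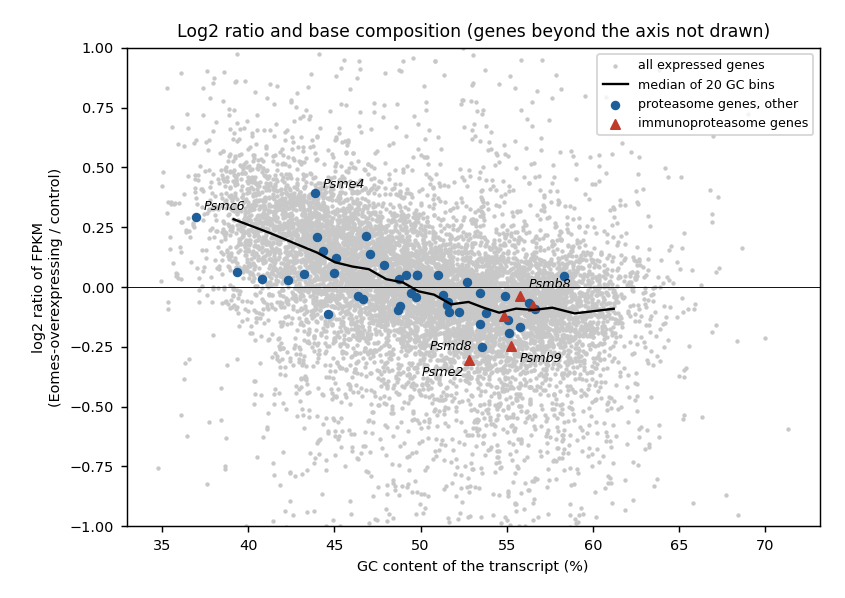
Log2 ratio of FPKM, Eomes-overexpressing over control, against the GC content of the transcript in percent, for all expressed genes (small points), immunoproteasome genes (triangles) and other proteasome genes (large points), with a line through the medians of 20 GC bins. Members follow the slope of the line, with *Psmc6* at the low GC end near it and *Psme2*, *Psmd8* and *Psmb9* below it.

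The other genes of the pathway, 49 of them expressed, also stood close to equal, with 30 higher and 19 lower and a median log2 ratio of 0.03. Centring turned this balance, to 19 higher and 29 lower among those with a GC content and a median of -0.01. Past 1.5-fold were 2, both lower in the Eomes library and both of the interferon-gamma axis that drives immunoproteasome genes, beside 5.19% of all expressed genes lower by as much. *Irf1* (chr 11, 53770014 to 53778374), a transcription factor that binds promoters of immunoproteasome genes, was at 21.6 FPKM in the control library and 14.1 in the Eomes library, a log2 ratio of -0.62 (-0.77 to -0.47) that came to -0.56 when centred and was then within 1.5-fold. *Ifngr2*, a receptor chain, was at 1.14 and 0.63 FPKM, a log2 ratio of -0.86 (-1.41 to -0.32) and -0.84 centred, at few reads. *Ifng*, the cytokine, was at 1343 and 1357 FPKM (log2 ratio 0.02, centred -0.13). *Nlrc5*, the activator of MHC class I genes, was at 15.5 and 14.8 FPKM (-0.07, centred -0.0071). The axis as a list was split, with 4 genes higher and 4 lower and a median of -0.03.

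The 4 peptide transport and loading genes were lower or equal, and the 7 peptidases that trim the proteasome's products were split, 4 higher and 3 lower (median log2 ratio 0.07). *Tap1*, a chain of the peptide transporter, was at 84.6 FPKM in the control library and 70.6 in the Eomes library, a log2 ratio of -0.26 (-0.32 to -0.20) and -0.17 centred, beside -0.25 and -0.16 for *Psmb9* on the other side of the stretch printed above. In the GENCODE annotation these neighbours overlap at their 5' ends, and whether reads there were told apart by strand is not given in the sources used here. *Tap2*, the other chain, was at 96.1 and 87.5 FPKM (-0.14, centred -0.04), and *Tapbp*, which loads peptides, at 78.3 and 68.0 FPKM (-0.20, centred -0.12). *B2m*, the light chain of MHC class I, was at 620.5 and 620.1 FPKM (-0.0010), but its centred ratio of -0.23 was the lowest of the 4. Of the 3 regulators of the proteasome genes 2 were higher and 1 lower, and all 3 were lower once centred. *Nfe2l1*, encoding the Nrf1 factor that raises proteasome genes when the proteasome is short, was at 33.0 and 30 FPKM (-0.14, centred -0.03). *Ngly1*, which activates Nrf1, was at 14.3 and 15.1 FPKM (0.08, centred -0.10), and *Nfe2l2*, encoding Nrf2, at 4.03 and 4.23 FPKM (0.07, centred -0.0048). *Adrm1*, the ubiquitin receptor of the cap, was at 159.1 and 162.9 FPKM (0.03, centred 0.13), and *Pomp*, the maturation factor of the core, at 249.5 and 237.7 FPKM (-0.07, centred -0.09). The 7 expressed proteins that associate with the proteasome, the deubiquitinases *Usp14* and *Uchl5* among them, were higher in the Eomes library, as were 4887 of all 9925 expressed genes. Their median was 0.17, and for the 6 with a GC content it was -0.02 when centred, with 2 higher and 4 lower.

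**Figure D5:**
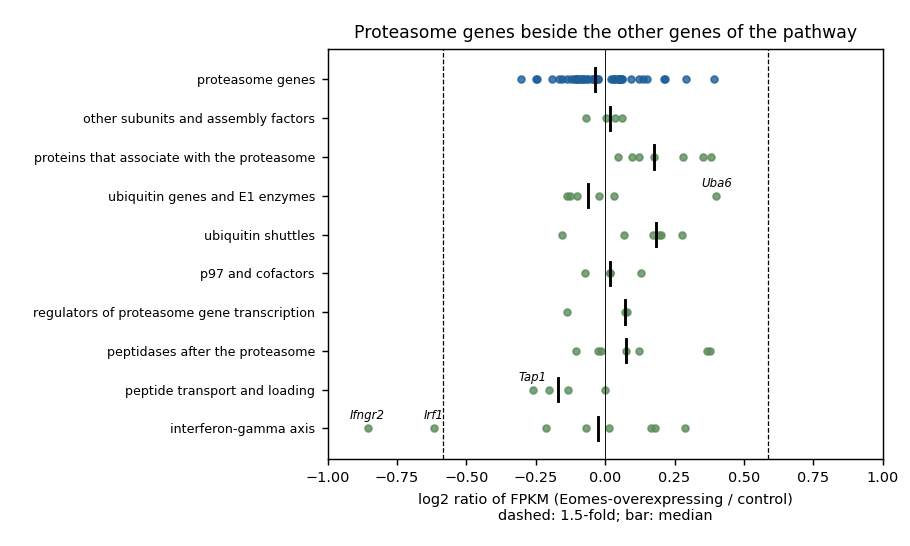
Log2 ratio of FPKM, Eomes-overexpressing over control, for the proteasome genes and for 9 lists of other pathway genes, 1 point per gene, with bars at list medians and dashed lines at 1.5-fold. *Irf1* and *Ifngr2* are the points past a dashed line, and the proteasome genes cluster around a median of -0.04.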

How the data were processed

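Total RNA of 2 cultures was sequenced, 1 library per condition. The authors filtered reads with SOAPnuke, mapped them to mm10 with HISAT and Bowtie2 and computed expression with RSEM (versions not given in the sources used here). The deposited values are FPKM per gene symbol, called RPKM in the methods, listed from 0.01 with 2 decimals. No normalization between libraries is named. Symbols that a spreadsheet had made into dates were dropped, 20 from the control and 19 from the Eomes library.

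Ratios were taken on the log2 scale in Python 3.11.15 (pandas 2.3.3, numpy 2.4.6, scipy 1.17.1, matplotlib 3.10.9), with missing values set to 0.01 and no test between the conditions. Expressed meant an FPKM of at least 1 in either library. Positions, lengths and GC content came from GENCODE vM21 (mm10), and 99.1% of the expressed genes had a GC content. Centring subtracted the median log2 ratio of 20 bins of GC content. Depth was the value between 10000000 and 32000000 reads at which low FPKM values of short genes lay closest to whole reads, scored by a mean cosine. At that depth 71.0% (control) and 70.3% (Eomes-overexpressing) of values came within 0.2 of a whole read, beside medians of 34.4% and 34.5% over the depths tried. Other length assumptions gave 18900000 to 21000000 and 19000000 to 20900000 reads. Approximate reads gave 95% intervals by the exact Clopper-Pearson method for single genes, and by a normal approximation to the log ratio of the reads for shares of a pair. Of the members, 20 shared 50-base stretches with another gene, 4 of them over 50% of their stretches (*Psme2*, *Psmb5*, *Psmb3* and *Psma5*), which RSEM may split. The steps were tested on simulated data.

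The members, gene lists and roles were chosen with earlier results of these data known. Values were given for the immunoproteasome genes and their counterparts, members past 1.5-fold, the 3 highest and 3 lowest log2 ratios, the 3 highest mean levels, the lowest level in each role and the symbols nearest the threshold of 1 FPKM. *Psma1*, *Psma2* and *Psmb1* were named after their values were seen. Of other pathway genes, a fixed set and those past 1.5-fold were named. 1 gene of that set is not reported here. Alternatives were pseudocounts of 0.1 and 1, no minimum or 5 FPKM, TPM scaling, centring on the median or a trimmed mean of all genes, GC centring and 1.2-fold or 2-fold thresholds. Centring by coding GC content, leaving out *Psmc3ip* and leaving out members with shared stretches were added after seeing the data.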

Additional observations from a re-analysis of the deposited data

How the results depend on the processing

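The members' median log2 ratio stayed between -0.04 and -0.0033 over 11 alternatives, and for the 17 genes recomputed under each setting the log2 ratio moved by more than 0.1 in 9 combinations of gene and setting and by less in 143, while other named genes were recomputed only under GC centring. Members past 1.5-fold were 0, but 1 (*Psma8*) with no minimum FPKM and 3 at 1.2-fold. Other pathway genes past 1.5-fold were 2, but 0 with a pseudocount of 1, 1 at a minimum of 5 FPKM, 1 after centring by GC content, 1 by coding GC content and 0 at 2-fold. Scaling to TPM put the constitutive catalytic median at -0.0632. After GC centring the medians were -0.0754 for constitutive catalytic, -0.0153 for all immunoproteasome, 0.0155 for immunoproteasome catalytic and 0.0173 for 19S chaperone genes. The *Psmb10* share with *Psmb7* in Eomes-overexpressing cells was then 28.3% and that of all 3 pairs 44.9%. Coding GC content, added after seeing the data, gave -0.10 for all immunoproteasome genes, -0.11 for the alpha ring, 0.0062 for the immunoproteasome catalytic genes and 0.0169 for *Psme3* and *Psme4*. The cause was not tested. No paired analysis was possible because each condition is 1 library. Depth of about 19600000 reads limits low genes most, and without replicates the spread between cultures is unknown.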
